A study of Rattus norvegicus with 31 samples.

Results

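The collagens, laminins and matrix-modifying enzymes of the rat are described here in 3 tissues, the liver and the white (WAT) and brown (BAT) fat, of animals fed different ratios of carbohydrate to fat (C-F). The genes were taken by symbol alone, as those named Col, Lama, Lamb, Lamc, Mmp, Timp, Adamts or Lox, with the expression values not used. They number 92 of the 14217 genes on the array and are read by 130 of 31042 probe sets. In each tissue a gene was represented by its probe set with the highest mean.

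Male Wistar rats, 3 weeks old at the start, had a week on chow and then a week on the diets ad libitum. For 9 weeks after that, they received the diets with the energy intake of the M- and H-groups held to that of the L-group. The L diet drew 65% of its energy from carbohydrate and 15% from fat, the M diet 60 and 20%, and the H diet 35 and 45%, where lard was held level between the diets and soybean oil made up the difference in fat. All rats were fasted for 17 h before dissection, and the rats M7 and H11 were omitted by the authors because they ate less. The liver was measured in 5 L, 4 M and 4 H rats, and WAT and BAT in the same 5 L and 4 H rats, with 1 array per rat and tissue and 31 arrays in all. Each array is a separate rat, so that the spread within a group is between animals. The depot from which WAT was taken is not given in the sources used here.

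The extracellular matrix is built from collagens that assemble into fibrils or sheets, and from laminins that polymerise in basement membranes around adipocytes, vessels and muscle cells. Lysyl oxidases, the products of Lox and Loxl1 to Loxl3, oxidise lysines of collagen and elastin so that the fibres cross-link. Matrix metalloproteinases (MMPs) and the ADAMTS proteases cut matrix proteins, and tissue inhibitors of metalloproteinases (TIMPs) hold them back. In the healthy liver most of this matrix is made by stellate cells and portal fibroblasts, and in adipose tissue by fibroblasts, progenitors and the adipocytes themselves. In whole tissue, more cells of a type and more RNA per cell cannot be told apart.

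All values are on a log2 scale, where a difference of 1 is a doubling, and each tissue was normalized on its own, so that levels are not compared between tissues. Defining markers followed the labels, with Alb between 14.28 and 14.30 in the L and H livers, Adipoq between 13.20 and 13.39 in WAT, and Ucp1 between 14.44 and 14.89 in BAT. Alb was also high in BAT, at 12.62 to 13.36, while the hepatocyte markers together averaged 5.26 to 5.57 there. Skeletal muscle transcripts stood out in the BAT of H13 and H15, where the 5 measured muscle markers averaged 4.86 and 6.06 against 2.30 in every other BAT sample. In WAT 46 of the 92 genes held 1 value on all 9 arrays. In BAT 27 genes held 1 value and 35 lay within 0.1 of the lowest value of the tissue, so that differences of these genes could not be seen.

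The limma and rank product tests were read side by side. The limma test sets a difference against the spread between rats, with p-values adjusted over all probe sets tested, and the words rose and fell are kept for an adjusted p under 0.05. Rank products, the test of the study, ranks the fold changes of all pairs of arrays, takes no account of a gene's own spread, and calls at a false discovery rate (FDR) under 0.05 over 100 permutations.

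None of the 92 genes rose or fell by limma in any of the 5 diet comparisons. The share of all probe sets that passed limma was itself small, with 0.0354% between the L and H livers, 0.00644% between L and M, 0.0129% between M and H, and 0.0% in both WAT and BAT. Without adjustment, limma p was under 0.05 for 5 of 92 genes between the L and H livers, 7 between L and M and 4 between M and H. It was so for 1 of the 46 genes that varied in WAT and 3 of the 65 in BAT. The share over the probe sets tested was 9.05, 4.03, 5.89, 7.82 and 4.47%. The WAT share was over the 5280 that varied, the BAT share over all 31042, of which 10370 held 1 value. With BAT limited to the 20672 that varied, 1502 had a p under 0.05, as did 3 genes. The smallest adjusted p of the genes in BAT was then 0.206, against 0.402. Rank products called 3, 1, 2, 5 and 6 of the genes in the same order of comparisons, and these carry the description below.

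In the liver, the largest differences between the L- and H-group among the matrix genes were those of cross-linking enzymes. Lox was higher in the H-group than in the L-group by 2.44 ± 0.55 (log2 fold change ± SE, 5 L and 4 H rats), a 5.42-fold difference, and Loxl1 by 0.63 ± 0.17. Both were called higher by rank products, where 0.664% of all probe sets were called higher and 0.741% lower, and Mmp12, the macrophage elastase, was the only gene of the 92 called lower. Of the 92 genes, 85 differed by less than 0.2 in either direction. The median over the 92 genes was -0.01, beside -0.00064 over all probe sets.

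Lox encodes the founding member of the lysyl oxidases. Its log2 values in the L livers were 8.31, 6.38, 9.34, 6.95 and 6.50 in rats 1 to 5. In the M livers they were 8.36, 7.93, 9.31 and 9.54 in rats 6, 8, 9 and 10, and in the H livers 9.46, 10.41, 9.53 and 10.34 in rats 12, 13, 15 and 16. Every H liver lay above every L liver, and L3 came closest to them. The M livers overlapped both the L and the H livers.

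The spread of Lox among the L livers was wide, with an SD of 1.28 against 0.51 in the H livers. Its 95% interval for H over L ran from 1.25 to 3.63, and limma gave an adjusted p of 0.193. With any 1 rat left out the difference stayed between 2.16 and 2.90 and the adjusted p between 0.0519 and 0.383, lowest without L3. The second Lox probe set gave a difference of 2.52. Rank products called Lox higher with an FDR of 0, and it was called in all 9 tests that left out 1 L or H rat.

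Between neighbouring diets Lox differed by 1.29 ± 0.55 from L to M and by 1.15 ± 0.58 from M to H, with limma adjusted p of 0.9999 and 0.873. These 3 liver comparisons share samples, so that they are not independent of each other. Rank products called Lox higher in both, at FDRs of 0.0025 and 0.000455, against 0.142% of probe sets called higher and 0.261% lower between L and M and 0.422% higher and 0.335% lower between M and H. Lox alone of the 92 genes was called between L and M.

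Loxl1, a lysyl oxidase tied to elastic fibres, lay at 4.87, 4.66, 4.51, 4.72 and 4.75 in the L livers. It lay at 4.72, 5.03, 4.31 and 4.99 in the M livers and at 5.08, 4.95, 5.66 and 5.62 in the H livers. The L and H livers did not overlap, H15 and H16 stood above the other H livers, and the M livers reached both ranges. The difference of H over L, 0.63, had a limma adjusted p of 0.296 and an FDR of 0.0118. The call was lost without H15 or without H16, where the higher calls over all probe sets went from 206 to 109 and 97. From M to H the difference was 0.57 ± 0.18 with an FDR of 0.0418. That call was lost without any 1 of H12, H13, H15, H16, M6 and M9. Over all probe sets the higher calls there went from 131 to 81, 61, 82, 59, 153 and 179. The other lysyl oxidases, Loxl2 and Loxl3, outside the rule for naming genes, differed by -0.15 ± 0.14 and -0.06 ± 0.06 from L to H.

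**Figure D1:**
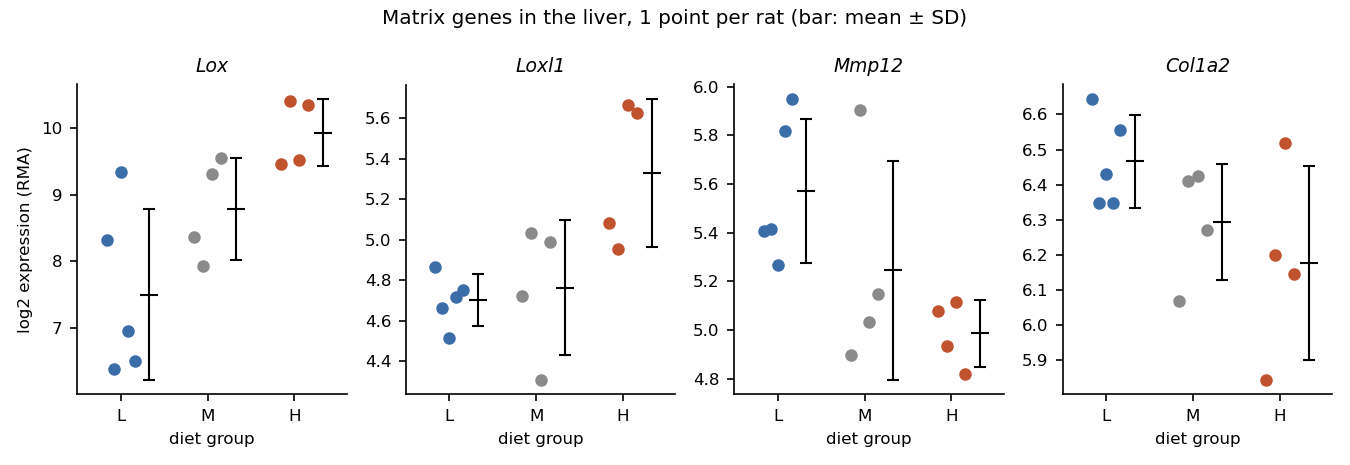
Log2 expression (RMA) of Lox, Loxl1, Mmp12 and Col1a2 in the liver, 1 point per rat, by diet group on the horizontal axis, with the mean ± SD beside each group. For Lox the H points lie between 9.46 and 10.41 and the L points between 6.38 and 9.34, and for Col1a2 the groups overlap.

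The bases upstream of the Loxl1 start are given here because Loxl1 is a gene of the liver result whose promoter is in the RefSeq table (rat GRCr8 assembly), which holds promoters of 69 of the 92 genes. The stretch is the 250 bases before the start, chr8:67612225-67612474 on the minus strand. Capitals mark the letters CAGACA, a sequence bound by SMAD proteins downstream of TGF-beta, searched on both strands (TGTCTG on the other) together with the GC box (GGGCGG), the CCAAT box, the TATA box (spelled TATAAA) and the core of the hypoxia response element (spelled ACGTG), none of which was found here.
Loxl1: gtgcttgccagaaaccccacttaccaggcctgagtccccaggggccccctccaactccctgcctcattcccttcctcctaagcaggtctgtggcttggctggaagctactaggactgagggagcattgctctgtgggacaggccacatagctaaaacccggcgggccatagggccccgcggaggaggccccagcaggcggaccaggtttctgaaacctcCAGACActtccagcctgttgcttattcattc
Of all 33469 RefSeq promoters of that length, 17.2% hold CAGACA or its complement, so that the match describes the window only.

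Mmp12 lay at 5.41, 5.42, 5.27, 5.82 and 5.95 in the L livers, at 4.90, 5.90, 5.03 and 5.15 in the M livers, and at 5.08, 4.94, 5.12 and 4.82 in the H livers. All H livers were below all L livers, and M8 alone of the M livers lay in the L range. The difference of H from L was -0.58 ± 0.19, with a limma adjusted p of 0.390 and an FDR of 0.00382, and it was called in all 9 tests with 1 rat left out. All 6 measured macrophage markers were higher in mean in the H livers, and none passed limma or rank products. Their averages overlapped, at 7.95 to 8.19 in the L livers and 8.05 to 8.55 in the H livers. The part of these cells in the Mmp12 values was not tested. Of the other 16 MMPs, which include the gelatinases and collagenases, none was called in the liver.

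Groups of livers that did not overlap were also found for Adamts16 among the 92 genes, which makes 2 higher and 2 lower between L and H, against 1.6% higher and 1.46% lower over all probe sets. Adamts16, a protease of the ADAMTS family, lay between 2.85 and 2.94 in the L livers and between 2.59 and 2.79 in the H livers, a difference of -0.15 ± 0.06 in a low range. Between L and M only Col4a4, a basement membrane chain, did not overlap, with 3.12 to 3.38 in L and 3.06 to 3.11 in M. Over all probe sets 0.493% were higher and 0.525% lower without overlap in that comparison. Between M and H, Adamts16, Adamts6 and Col1a1 were lower without overlap, by 0.24, 0.25 and 0.14, against 1.42% of probe sets lower and 1.52% higher. None of these genes was called by limma or rank products.

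The collagens of the liver differed little in value between the L and H diets, and none was called. Col1a1 and Col1a2 encode the chains of type I collagen, the main fibril of scar and tendon. Col1a2 lay between 6.35 and 6.65 in the L livers, 6.07 and 6.42 in the M livers, and 5.84 and 6.52 in the H livers, with a difference of H from L of -0.29 ± 0.12. Its unadjusted p was 0.0285 and its adjusted p 0.499, and H15 lay inside the range of the L livers. Col1a1 differed by -0.06 ± 0.06 and Col3a1, the partner fibril collagen of soft organs, by -0.06 ± 0.13.

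The type V chains that regulate fibril width differed by -0.12 ± 0.07 (Col5a1) and 0.04 ± 0.13 (Col5a2). The type VI chains, which form beaded filaments around cells, differed by -0.03 ± 0.05 (Col6a1), -0.02 ± 0.07 (Col6a2) and 0.18 ± 0.15 (Col6a3). In the basement membrane, Col4a1 differed by -0.13 ± 0.08 and Col4a2 by 0.04 ± 0.05, and the 10 laminins had a median of -0.01 with a range from -0.16 to 0.32. The 4 TIMPs ranged from -0.14 to 0.11 and the 12 ADAMTS proteases from -0.15 to 0.21. Averaged over all 92 genes as the deviation from each gene's mean, the livers lay between -0.07 in L2 and 0.06 in M10, and the H livers between -0.03 and 0.03.

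Markers of the cells that make hepatic matrix lay in overlapping ranges. The 7 stellate cell and pericyte markers averaged 5.50 to 5.74 in the L livers and 5.52 to 5.65 in the H livers. None of the 7 passed limma or rank products. Of the 6 fibroblast markers, Dcn alone was called lower by rank products. The part of changing cell shares in the values of Lox and Loxl1 was not tested.

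**Figure D2:**
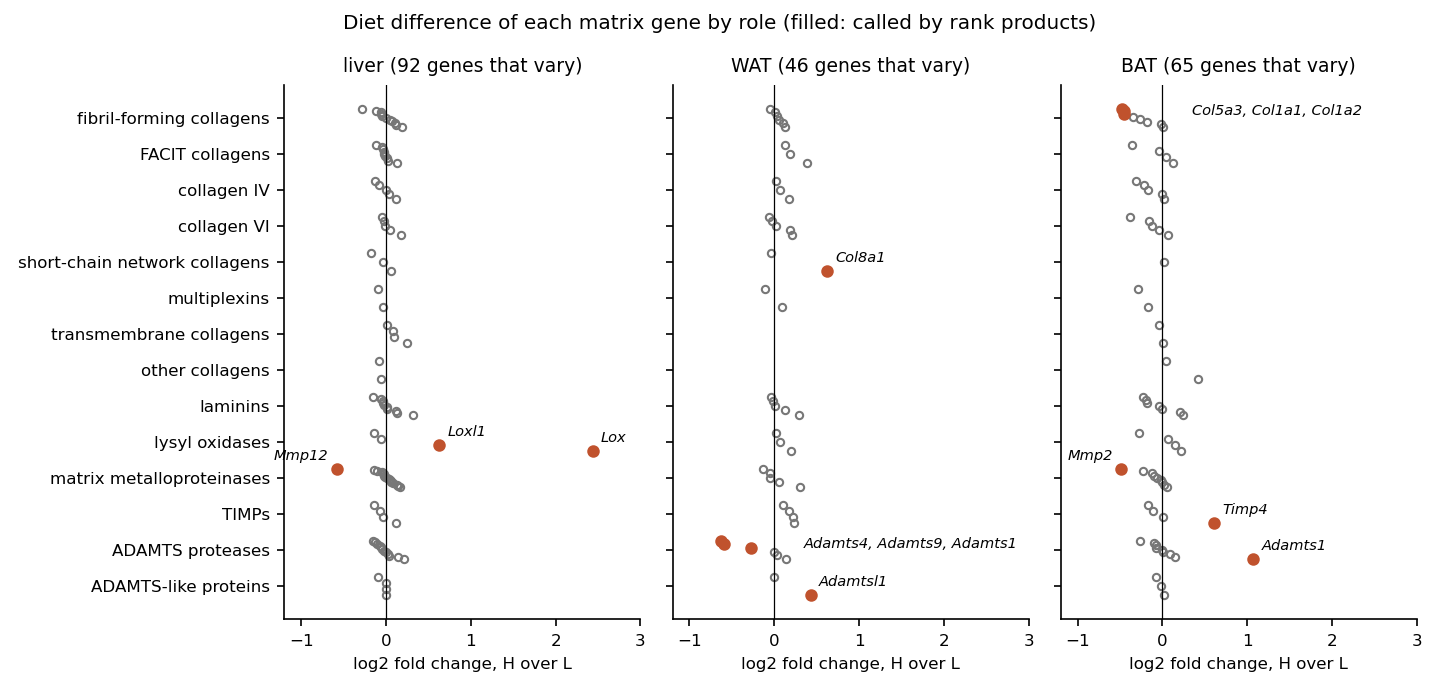
Log2 fold change of the H-group over the L-group (horizontal axis) for each matrix gene that varied, by role (vertical axis), in the liver, WAT and BAT, with filled points for the genes called by rank products. Lox in the liver lies at 2.44, apart from the other genes, and the calls in WAT and BAT fall in other roles.

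In WAT the matrix genes differed little in mean between the diets, and 1 rat of the H-group, H15, stood high in many of them. Of the 46 genes that varied, 32 had a higher mean in the H-group and 14 a lower mean, with a median difference of 0.06 beside 0.02 over all varying probe sets. Rank products called 2 genes higher, Col8a1 and Adamtsl1, and 3 lower, Adamts1, Adamts4 and Adamts9. Over all probe sets 0.767% were called higher and 1.08% lower, and over the 5280 that varied, 4.51 and 6.33%. The 2 and 3 genes out of 46 are near these last shares.

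Rat H15 had the highest value of all 9 rats in 27 of the 46 genes, where it was the highest in 27.9% of all varying probe sets. Col1a1 lay at 11.15, 10.74, 10.39, 11.16 and 10.32 in the L rats and at 10.33, 10.64, 12.14 and 10.41 in H12, H13, H15 and H16. H15 stood far above all others, and the other H rats lay within the L range. The difference of H over L was 0.13 ± 0.41, and without H15 it was -0.29.

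The same turn of direction without H15 was seen in Col1a2 (0.05 to -0.31), Col5a1 (0.04 to -0.20), Col6a1 (0.02 to -0.18), Col6a2 (0.18 to -0.06) and Lox (0.02 to -0.45). Col3a1 went from 0.01 to -0.17, Col5a2 from 0.10 to 0.01 and Col6a3 from -0.03 to -0.26. None of these was called by either test over all 9 rats. Without H15, rank products called Col1a2 (FDR 0.0297), Lox (FDR 0.0190), Col6a3 and Col6a5 lower, beside Adamts1, Adamts4 and Adamts9, while limma called none. Over all probe sets 428 were then called lower and 94 higher, against 334 and 238 with all rats. H12 was the lowest of the 9 rats for Col1a2, Col5a1, Col6a1, Col6a2 and Col6a3. With any 1 rat left out, Col1a1 ran from -0.29 to 0.31 and Col1a2 from -0.31 to 0.31. Without H12, 36 of the 46 varying genes had a higher mean in the H-group and 10 a lower mean, and without H15, 18 and 28. The values of these genes in WAT thus turned on single rats, and no direction is given to them. A second Col1a2 probe set was called lower by rank products at an FDR of 0.0477 with a mean difference of -0.02 ± 0.47, while the first was not called.

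Lox lay at 9.20, 9.24, 8.40, 9.83 and 9.19 in the WAT of the L rats and at 8.48, 9.35, 10.61 and 8.33 in the H rats. H15 was the highest of all and H16 the lowest of all, so that the H range held the L range. The diet difference of Lox in WAT was 0.02 ± 0.50. Loxl1, also given outside the rule, lay between 9.40 and 10.48 in the L rats and at 8.99, 10.74, 11.34 and 9.64 in the H rats, with H15 again the highest.

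Markers of other cells moved with the same rat. The 6 measured fibroblast and progenitor markers averaged 10.98 in H15 and 9.66 to 10.48 in the other rats. The 4 measured mesothelial markers averaged 11.26 in H15, 7.79 in H16 and 8.53 to 10.37 in the others. All 4 mesothelial markers varied between the rats. No WAT probe set lay within 0.1 of the lowest value of the tissue, so that this limit cannot tell whether these cells' markers were expressed. The part of these cells in the collagen values was not tested.

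Col8a1 encodes a short-chain collagen of vessel walls. Its values were 8.49, 8.44, 7.93, 8.86 and 8.27 in the L rats and 8.23, 9.20, 10.08 and 8.57 in the H rats. H13 and H15 lay above all L rats, and H12 and H16 lay among them. The difference was 0.62 ± 0.38 with a limma adjusted p of 0.764, and 0.27 without H15. The call, at an FDR of 0.0224, was lost without H13, H15, H16 or L3. Higher calls over all probe sets went from 238 to 43, 94, 38 and 173 in these tests.

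Adamtsl1, a secreted ADAMTS-like protein without the protease part, lay between 7.48 and 8.09 in the L rats and at 8.22, 7.71, 8.63 and 8.04 in the H rats. The groups overlapped at H13 and H16. The difference was 0.43 ± 0.20, with a limma adjusted p of 0.659 and an FDR of 0.0293. The call was lost in 5 of 9 tests with 1 rat left out, those without H12, H13, H15, H16 or L4. There the higher calls over all probe sets went from 238 to 66, 43, 94, 38 and 239.

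The proteases called lower in WAT were the aggrecanases Adamts1, Adamts4 and Adamts9, which cut the proteoglycans aggrecan and versican. Adamts4 lay at 8.95, 9.03, 9.04, 8.35 and 7.75 in the L rats and at 7.81, 8.08, 8.32 and 7.80 in the H rats. The rats L1, L2 and L3 were above all others, and L5 was the lowest of the 9. The difference was -0.62 ± 0.29, with a limma adjusted p of 0.659 and an FDR of 0.00183.

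Adamts9 lay at 8.86, 10.19, 9.87, 8.81 and 8.32 in the L rats and at 9.98, 8.31, 8.33 and 7.87 in the H rats. H12 was nearly as high as L2, so that the groups overlapped widely, and the difference was -0.59 ± 0.54. Adamts1 lay between 9.04 and 10.17 in the L rats and between 9.07 and 9.82 in the H rats, a difference of -0.27 ± 0.26. Adamts4 and Adamts9 were called in all 9 tests with 1 rat left out and Adamts1 in 2 of 9. Lower calls over all probe sets ranged from 139 to 495 in these tests, against 334 with all rats.

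Among the inhibitors, Timp3, which binds to the matrix and blocks ADAMTS proteases as well as MMPs, lay between 11.04 and 11.38 in the L rats and at 11.16, 11.63, 11.28 and 11.71 in the H rats. H13 and H16 were above all L rats. The difference was 0.23 ± 0.13 with a limma adjusted p of 0.743 and an FDR of 0.125. The other 3 Timp3 probe sets were higher by 0.26 to 0.38, and 1 of them was called higher by rank products at an FDR of 0.0276. All 4 TIMPs had a higher mean in the H-group, by 0.10 to 0.23, and none was called on its representative probe set. The only unadjusted p under 0.05 in WAT was that of Mmp2, gelatinase A, with 10.02 to 10.36 in L and 10.16 to 10.74 in H and a difference of 0.30 ± 0.12.

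In the basement membrane, Col4a1 differed by 0.07 ± 0.09 and Col4a2 by 0.02 ± 0.06, and H15 was below the mean of the 9 rats for both, unlike its place for Col1a1, Col1a2 and Col3a1. No gene of the 92 had WAT groups without overlap, where 1.59% of the varying probe sets were higher and 1.06% lower in this way.

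**Figure D3:**
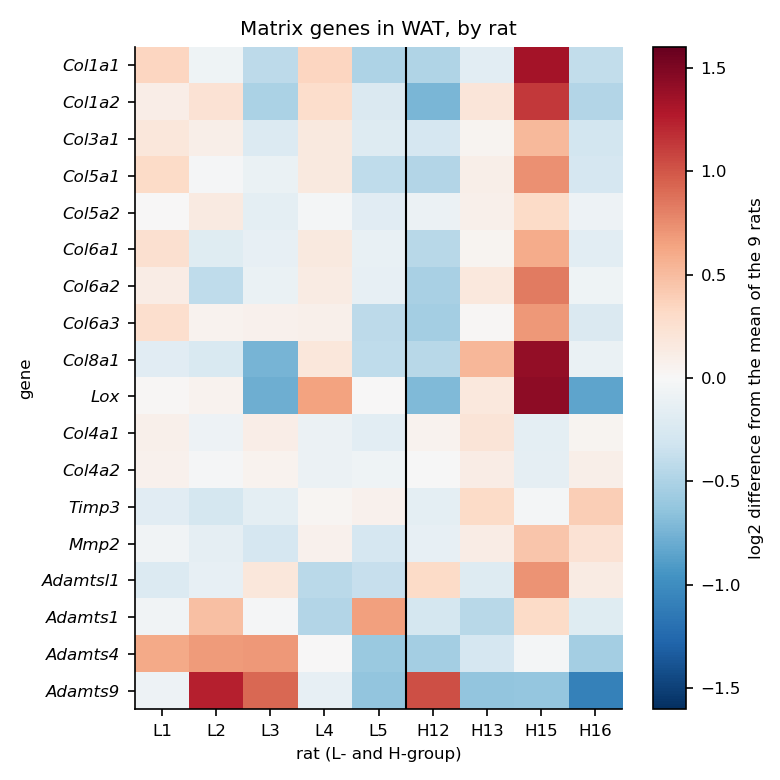
Difference of each rat from the mean of the 9 rats, on the log2 scale, for 18 matrix genes (rows) in the WAT of the L- and H-group rats (columns). H15 is the highest rat for Col1a1, Col1a2, Col3a1, Col5a1, Col5a2, Col6a1, Col6a2, Col6a3, Col8a1 and Lox, by up to 1.43 above the mean, and Col4a1 and Col4a2 do not follow it.

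In BAT, Timp4 and Adamts1 were higher in mean in the H-group and several collagen genes and Mmp2 were lower in mean. Rank products called 2 genes higher, Timp4 and Adamts1, and 4 lower, Col1a1, Col1a2, Col5a3 and Mmp2. Over all probe sets 0.68% were called higher and 1.33% lower, and over the 20672 that varied, 1.02 and 1.99%. Of the 65 genes that varied, 25 had a higher and 40 a lower mean in the H-group, with a median of -0.04 beside 0.0023 over all varying probe sets. Of the 57 genes more than 0.1 above the lowest value on some array, 17 had a higher and 39 a lower mean. Without H13 and H15, the rats with skeletal muscle transcripts, rank products called none of the genes with 2 H rats left. Of all 31042 probe sets, 0 were then called higher and 363 lower. The loss of the 2 higher calls was thus shared by every probe set and is not particular to these genes. The differences are given both ways. All 4 lower calls were lost without L2, without L3 or without L4. Over all probe sets the lower calls then went from 412 to 235, 238 and 227, so that part of this loss was shared.

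Timp4 is the TIMP most typical of heart and adipose tissue. It lay at 8.22, 8.04, 8.30, 8.27 and 8.29 in the L rats and at 8.95, 8.54, 8.82 and 9.04 in the H rats. All H rats were above all L rats, and of the H rats those without muscle transcripts, H12 and H16, were the highest. Timp4 alone of the 92 genes had BAT groups that did not overlap, where 1.26% of the varying probe sets were higher and 1.08% lower in this way.

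The difference of Timp4 was 0.61 ± 0.11, a 1.53-fold difference with a 95% interval from 0.36 to 0.87. Its unadjusted limma p was 0.000669, its adjusted p 0.402, and its FDR 0.0320. Without H13 and H15 the difference was 0.77 with an adjusted p of 0.208, and with any 1 rat left out it stayed between 0.55 and 0.71. The call by rank products was lost without H12, H13, H15, H16 or L2. Over all probe sets the higher calls went from 211 to 83, 25, 37, 182 and 189 in these tests. The other 3 TIMPs ranged from -0.17 to 0.0049.

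Adamts1 lay at 4.59, 4.30, 5.23, 4.92 and 5.29 in the L rats and at 6.85, 5.68, 6.42 and 4.80 in the H rats. H12, H13 and H15 were above all L rats, and H16 was among them. The difference was 1.07 ± 0.44, a 2.10-fold difference, with a limma adjusted p of 0.970 and an FDR of 0.00394. Without H13 and H15 it was 0.96, and the call was lost without H12 or without H15. Leaving out H12 or H15 took the higher calls over all probe sets from 211 to 83 and 37.

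The bases before the starts of Timp4 and Adamts1, the pair called higher in BAT, are given for comparison of their promoters (RefSeq, GRCr8). The Timp4 stretch is chr4:149985205-149985454 and the Adamts1 stretch chr11:38427385-38427634, both on the minus strand. Capitals mark matches, on either strand, to the same set of motifs.
Timp4: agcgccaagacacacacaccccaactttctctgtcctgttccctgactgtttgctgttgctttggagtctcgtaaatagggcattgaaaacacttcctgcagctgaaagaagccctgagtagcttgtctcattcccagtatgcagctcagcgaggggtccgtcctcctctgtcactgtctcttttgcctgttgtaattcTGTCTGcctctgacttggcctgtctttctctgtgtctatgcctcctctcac
Adamts1: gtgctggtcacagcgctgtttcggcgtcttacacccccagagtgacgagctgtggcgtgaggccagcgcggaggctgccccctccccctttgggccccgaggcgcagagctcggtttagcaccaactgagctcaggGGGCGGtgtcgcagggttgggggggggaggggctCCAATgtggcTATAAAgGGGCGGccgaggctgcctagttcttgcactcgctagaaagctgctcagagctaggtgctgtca
The Timp4 stretch holds 1 match, to the SMAD element on the other strand. The Adamts1 stretch holds a TATA box match at -70 from the start, a CCAAT box match at -80 and GC box matches at -63 and -114. Over all promoters 30.5% hold a GC box, 34.0% a CCAAT box, 12.9% a TATA box and 16.6% the hypoxia core, on either strand.

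Among the fibril-forming collagens of BAT, 7 of the 8 that varied had a lower mean in the H-group, with a median of -0.30. Of these, Col11a1, counted as lower, left the floor of 2.29 only in L1, at 2.39. Col11a2, counted as higher, reached only 2.32, so that neither direction could be seen. Col1a1 lay at 7.28, 7.83, 8.89, 7.52 and 6.99 in the L rats and at 8.51, 6.73, 6.99 and 6.76 in the H rats. H12 was higher than all L rats but L3, and the other H rats lay at or below the lowest L rat. The difference was -0.45 ± 0.52, and it was -0.07 without H13 and H15, with a limma adjusted p of 0.970 over all 9 rats.

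Col1a2 differed by -0.45 ± 0.31, and by -0.12 without H13 and H15. Col3a1 differed by -0.35 ± 0.27, Col5a1 by -0.18 ± 0.17 and Col5a2 by -0.26 ± 0.18, and these became 0.04, 0.04 and -0.01 without H13 and H15. A second Col5a1 probe set differed by -0.52 ± 0.16 and was called lower at an FDR of 0.0145, and a second Col1a1 probe set, at -0.22 ± 0.38, was not called. Col5a3, a type V chain, lay between 6.04 and 6.88 in the L rats and at 6.25, 6.34, 5.22 and 6.24 in the H rats. H15 alone was low, and the difference of -0.48 ± 0.28 was -0.25 without H13 and H15. Mmp2 lay between 6.75 and 7.98 in the L rats and at 7.26, 6.32, 6.49 and 6.87 in the H rats, a difference of -0.48 ± 0.29, and -0.16 without H13 and H15.

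The part of the muscle in these collagen and Mmp2 values was not tested beyond leaving out the samples. The fibroblast markers averaged 6.29 in H12 and 5.71 to 5.85 in H13, H15 and H16, against 5.89 to 6.16 in the L rats. Of the 5 smooth muscle markers, 4 were lower and 1 higher in mean, and rank products called 3 lower and 1 higher. Their averages overlapped, at 5.89 to 6.82 in the L rats and 5.93 to 6.23 in the H rats. Myh11, the heavy chain of smooth muscle myosin, lay between 8.32 and 9.01 in the L rats and between 7.58 and 7.86 in the H rats.

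Col4a1 and Col4a2 encode the chains of the main type IV collagen, the sheet of basement membranes. Col4a1 lay at 10.97, 11.04, 10.996, 11.06 and 10.72 in the L rats and at 10.86, 10.49, 10.58 and 10.66 in the H rats. L5 was the only L rat within the H range. The difference was -0.31 ± 0.10, with an unadjusted limma p of 0.0140 and an adjusted p of 0.849, and -0.20 without H13 and H15. Col4a2 lay at 9.50, 9.28, 9.39, 9.20 and 8.96 in the L rats and at 9.19, 8.90, 8.93 and 9.19 in the H rats. L5 was again the lowest L rat and H13 and H15 the lowest H rats, and the difference was -0.21 ± 0.12, or -0.07 without H13 and H15.

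These 2 genes lie head to head, and 76 bases separate their starts on chromosome 16 (RefSeq, GRCr8). The interval is shown because 1 stretch of DNA lies before both genes. It is chr16:84885521-84885596 on the plus strand, read towards Col4a1, with a GC box on the other strand in capitals.
Col4a1-Col4a2: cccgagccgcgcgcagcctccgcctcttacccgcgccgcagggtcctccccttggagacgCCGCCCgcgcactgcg
No other of the 5 motifs was found in these letters.

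Type VI collagen genes of BAT differed by -0.12 ± 0.32 (Col6a1), -0.16 ± 0.28 (Col6a2) and -0.38 ± 0.22 (Col6a3). Without H13 and H15 they differed by 0.29, 0.17 and -0.11, so that the direction of the first pair turned. The 7 laminins that varied ranged from -0.22 to 0.24 with a median of -0.04. Lox lay at the floor of 2.29 in 8 of 9 BAT samples and at 2.91 in H12, so that its level in BAT has only an upper bound. Loxl1 lay between 4.03 and 4.58 in the L rats and between 3.88 and 4.23 in the H rats, a difference of -0.28 ± 0.14 and not called.

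**Figure D4:**
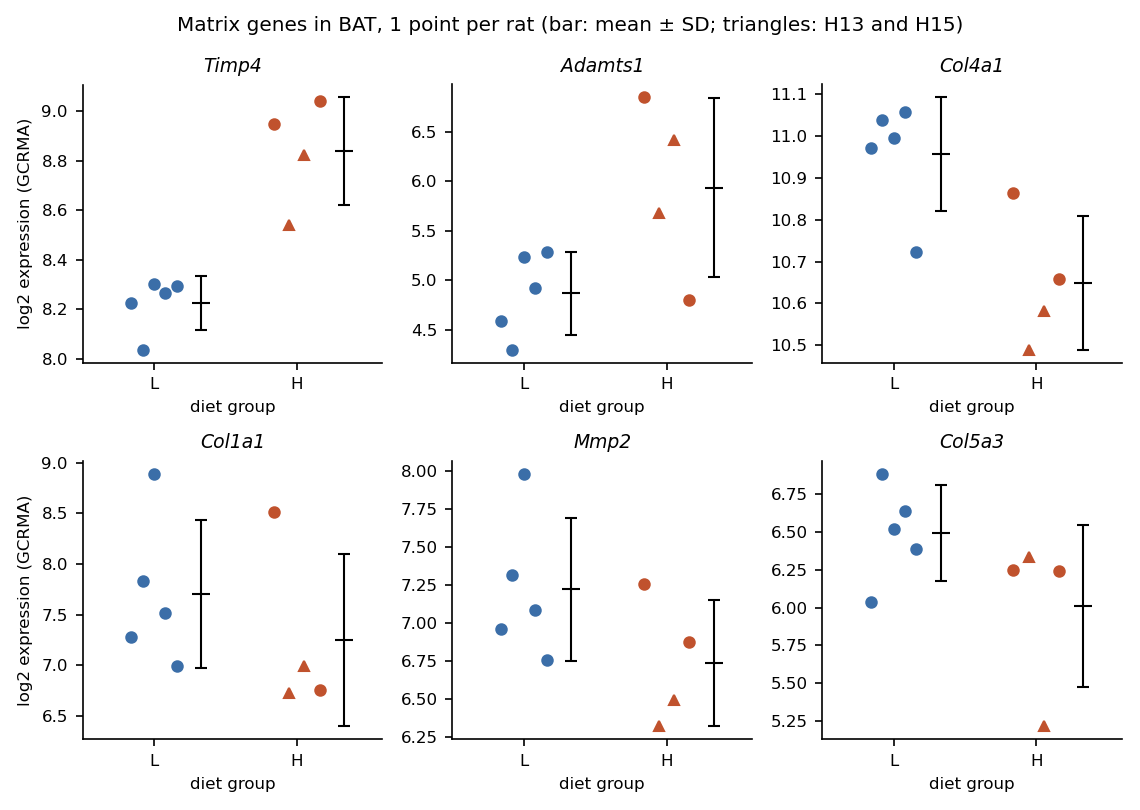
Log2 expression (GCRMA) of 6 matrix genes in BAT, 1 point per rat, by diet group on the horizontal axis, with the mean ± SD beside each group and triangles for H13 and H15, which carry skeletal muscle transcripts. For Timp4 all H points, 8.54 to 9.04, lie above all L points, 8.04 to 8.30, and for the other genes the groups overlap.

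The diet differences of pairs of tissues were set against each other with interaction terms in limma. No matrix probe set passed in WAT against liver (64 tested), BAT against liver (90) or WAT against BAT (60), where 0.0, 0.3 and 0.0409% of all tested probe sets passed. Unadjusted p was under 0.05 for 6, 7 and 8 matrix probe sets, beside 7.95, 11.6 and 8.84% of all. With rat as a replicate block, which takes up that the tissues came from the same animals, none passed either.

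The smallest adjusted p was that of Timp4, whose difference was 0.65 ± 0.14 larger in BAT than in the liver (adjusted p = 0.0643, and 0.176 with the block). In the liver Timp4 lay between 2.85 and 3.31 in the L rats and between 3.00 and 3.05 in the H rats, and in WAT it differed by 0.10 ± 0.16. The difference of BAT minus liver was -0.91 ± 0.21 for Loxl1 (adjusted p = 0.0884) and -2.28 ± 0.65 for Lox (adjusted p = 0.163), whose BAT values sit at the floor. For Lox in WAT against the liver the difference was -2.42 ± 0.81 with an adjusted p of 0.396.

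Without L3, both Lox probe sets passed in BAT against liver, with adjusted p of 0.0332 and 0.0147, and without H13 Timp4 passed, with an adjusted p of 0.0474. These fits with 1 rat left out held no rat block and so ignored the pairing. With the block over all rats, the adjusted p were 0.216 and 0.162 for the Lox probe sets and 0.176 for Timp4. Adamts1 went in opposite directions in the adipose tissues, 1.07 in BAT and -0.27 in WAT. The difference between them was -1.34 ± 0.49 for WAT against BAT, with an adjusted p of 0.381. The methods of normalization differed between the tissues, and a difference in scale enters these tests.

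The wider matrix machinery was followed in 75 other genes for glycoproteins, proteoglycans, collagen folding, matrix receptors, TGF-beta signalling, and plasmin and cathepsin proteases. None passed limma in any comparison. Rank products called 0 higher and 3 lower between the L and H livers, namely decorin (Dcn, a proteoglycan that binds collagen fibrils) at -0.61 ± 0.25, Itga6, a laminin receptor subunit, at -0.79 ± 0.32, and Inhba, an activin subunit, at -0.51 ± 0.25. In WAT 3 of the 48 that varied were called higher and 1 lower, and in BAT 0 of 63 higher and 2 lower. Over all varying probe sets the shares were 4.51% higher and 6.33% lower in WAT and 1.02 and 1.99% in BAT, and over all liver probe sets 0.664 and 0.741%, so that the counts in WAT and BAT are near the background.

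Sparc, which binds collagen and aids its assembly, was among those called higher in WAT. It lay between 13.12 and 13.39 in the L rats and between 13.44 and 13.54 in the H rats. The groups did not overlap, and the difference was 0.23 ± 0.06 with a limma adjusted p of 0.378. Of the 48 genes that varied in WAT, 2 were higher and 0 lower without overlap, against 1.59% and 1.06% of the varying probe sets. Tgfb3 and Mme, a cell surface peptidase, were called higher in WAT at 0.52 ± 0.25 and 0.33 ± 0.18, and P4ha3, a collagen prolyl hydroxylase subunit, lower at -0.20 ± 0.50. The pair called lower in BAT were Nid2, a basement membrane nidogen, at -0.59 ± 0.28 and Lum, a fibril-binding proteoglycan, at -0.53 ± 0.39.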

How the data were processed

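RNA of 31 samples was hybridized to Affymetrix rat arrays. Per the labels and methods, the deposited log2 values are the authors' output of RMA (liver), qFARMS (WAT) and GCRMA (BAT), which normalize each tissue on its own, in R 2.7.1 with Bioconductor 2.2. They were used as deposited, without 57 control probe sets. Of 31042 probe sets, 20826 carry 1 gene symbol in the platform annotation, 436 several and 9780 none, and only the first were named. qFARMS left 25762 probe sets of WAT at 1 value (to 1e-06). The number of arrays limits the precision.

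The genes, lists and tests were chosen with earlier results of these data known. The genes named were those called by limma or rank products, up to 6 per direction without overlap between groups, and in each comparison 10 collagen genes of the main fibrils and networks and Lox, with the genes of the study's lists (Timp3 in WAT; Col1a1, Mmp2 and Timp4 in BAT). Named outside this rule were Loxl2 and Loxl3 in the liver, Mmp2 and Col6a5 in WAT, and Loxl1 in WAT and BAT. So were Timp4 in the liver and WAT, second probe sets and genes of the other lists, all after their values were seen.

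limma 3.58.1 in R 4.3.3 was fitted to the 13 liver, 9 WAT (5280 varying probe sets) or 9 BAT arrays, with Benjamini-Hochberg adjustment. Rank products were written in Python 3.11.15. Both were tested on simulated data, limma on resampled liver values and rank products on genes of equal spread. The measured genes differ in spread, which the second simulation does not cover. Marker and pathway lists were described by counts. The same rats gave all tissues, and deviations of the same rat correlated at 0.167 to 0.351 between WAT and liver, 0.0399 to 0.179 between BAT and liver, and 0.125 to 0.484 between WAT and BAT over probe sets, so that the tissues are paired. Alternatives were filters, a stricter FDR, scaling, array weights, a trended fit, the mean of all probe sets, the compared diets alone and each rat left out. Others, chosen after seeing the data, were limits on the BAT probe sets and the removal of H13 and H15. Samples were grouped by the labels.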

Additional observations from a re-analysis of the deposited data

Results flagged for a closer look

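In 108 groups of 4 or 5 rats tested for a single value far from the others, 5 were found, and chance alone marks about 1 group in 20. Adamts16 in the liver was 2.59 in H15 against 2.78 to 2.79 in the other H rats. In BAT, Col1a1 was 8.51 in H12 against 6.73 to 6.99 in the other H rats, and Col5a3 was 5.22 in H15 against 6.24 to 6.34. Col4a1 in BAT was 10.72 in L5 against 10.97 to 11.06 in the other L rats. Lox in BAT was 2.91 in H12, where the other H rats lay at the floor of 2.29.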

How the results depend on the processing

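The count of 0 genes by limma held in all diet comparisons under every alternative run. At an FDR of 0.01, rank products called 2 genes between the L and H livers and 1 each between L and M and between M and H. In WAT it called 2 and in BAT 1. Over all 31042 probe sets the calls were then 205, 58, 92, 169 and 253 in the same order. With the 15521 probe sets above the tissue median, 3, 1, 1, 2 and 1 genes were called. Of all those probe sets 249, 70, 144, 189 and 286 were called. Without the BAT of H13 and H15, a choice made after seeing the data, 0 were called there. Over all probe sets 0 were then called higher and 363 lower. With 1 rat left out, the calls ranged from 2 to 3 between the L and H livers, 1 to 2 between L and M, 1 to 2 between M and H, 2 to 7 in WAT and 1 to 9 in BAT. Over all probe sets the calls ranged from 300 to 444, 75 to 195, 149 to 232, 314 to 561 and 396 to 641 in that order. These totals hold the higher and lower calls together. In BAT 9 were called without H16, 1 without H15 and 1 without L2, and in WAT 7 without H15. Interactions with 1 rat left out, fitted without the rat block, ranged from 0 to 0 for WAT against liver and for WAT against BAT. They ranged from 0 to 2 for BAT against liver. With rat as a replicate block, 0 matrix probe sets passed in each pair of tissues, and over all probe sets the number that passed went from 62 to 2 for BAT against liver, from 2 to 0 for WAT against BAT and from 0 to 1 for WAT against liver. Of 72 named log2 fold changes, 26 that had passed no limma test changed sign under some alternative, and their largest size was 0.35. The causes were not tested. Signal near the background limits BAT, and constant values limit WAT.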
